A study of Mus musculus with 4 samples.

Results

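The loci described here are stretches of the mouse genome that carry a position for a name instead of a gene symbol, and that stand in pairs. All 60983 position-named loci were sorted by chromosome, strand and start, loci on the same strand were chained where the gap between them was at most 1000 bp, and chains of exactly 2 loci were kept. This gave 4373 pairs, or 8746 loci, out of 115821 rows in the expression tables. Another 21041 loci stood in chains of 3 or more and 31196 stood alone. In each pair the locus that comes first in the direction of transcription is called upstream and the other downstream.

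The data are RNA-seq libraries from Hepa1-6, an established mouse hepatocellular carcinoma line that grows in culture. Both groups carry a short hairpin RNA, a small RNA that lowers the level of its target. The 2 control libraries come from cells with the hairpin labelled NC and the genotype Setdb1 wild type, and the 2 knockdown libraries from cells with the hairpin against Setdb1. The design text speaks of subclones, and no label says whether the 2 libraries of a group are separate clones or cultures, so every p-value here reflects the spread between libraries, which may be technical. The libraries held between 19513567 and 19615440 expected counts, that is, reads assigned to a row by an estimate.

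Setdb1 is a histone methyltransferase that places the repressive mark H3K9me3. It is brought to DNA mainly through the corepressor Trim28 and KRAB zinc finger proteins, and it keeps many endogenous retroviruses silent. An intact endogenous retrovirus carries the genes gag, pro, pol and often env one after another between its long terminal repeats, in reading frames that can overlap. Names of this form are used by the gEVE catalogue of open reading frames from endogenous viral elements, but the source of these rows is not given in the sources used here.

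The sequences show what a member is and what separates 2 members of a pair. No genome sequence was at hand, so only loci inside annotated exons could be read, from GENCODE M21 transcripts on GRCm38. Of the 37 members that could be read, all 37 had 0 stop codons in frame, 0 began with ATG and 0 ended in a stop. In each of the 15 pairs in which both ends of the junction could be read, the codon after the upstream member was a stop, and so was the codon before the downstream member. At these junctions the members thus stop just before, or start just after, a stop codon. The outer ends of the loci were not read.

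The commonest spacing was a gap of 3 bp, which leaves room for a single codon. The junctions below come from pairs inside the processed pseudogenes Gm48498 (chr12:14491324-14491422, minus strand) and Gm48270 (chr10:50257622-50257720, plus strand). Each holds the last 48 bases of the upstream locus, the codon between the members in capitals, and the first 48 bases of the downstream locus.
Gm48498 junction: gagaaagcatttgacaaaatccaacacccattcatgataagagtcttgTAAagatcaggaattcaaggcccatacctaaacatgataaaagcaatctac
Gm48270 junction: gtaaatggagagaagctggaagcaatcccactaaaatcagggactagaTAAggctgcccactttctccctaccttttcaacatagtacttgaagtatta
The codon between the members was TAA in both. The upstream and downstream loci of both pairs were at 0 counts in all 4 libraries, so these windows show the structure and not a level.

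A second arrangement has a short upstream locus, a gap and a long downstream locus in another frame. The readable example closest to it lies in Gm42653, a transcript with no settled class (chr5:70563334-70563581, plus strand), with a 528 bp locus, a gap of 152 bp and a 2415 bp locus. The window below gives the last 48 bases of the upstream locus, the whole gap and the first 48 bases of the downstream locus. Capitals mark the stop that ends the upstream frame, the codon at positions 54 to 56 of the gap, and the stop before the downstream locus.
Gm42653 gap: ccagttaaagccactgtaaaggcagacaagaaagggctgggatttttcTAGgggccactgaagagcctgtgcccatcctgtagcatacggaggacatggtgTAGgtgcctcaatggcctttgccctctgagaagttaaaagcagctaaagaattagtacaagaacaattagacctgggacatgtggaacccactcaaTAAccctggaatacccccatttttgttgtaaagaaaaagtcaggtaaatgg
The codon at positions 54 to 56 of this gap is TAG, and in most pairs of this arrangement the gap is 56 bp long. Another arrangement has members that overlap. Its readable example is in Gm47652 (chr9:37333517-37333667, plus strand), where a 1812 bp locus and a 3570 bp locus share 145 bp. The window holds the shared bases, with the stop that opens the downstream frame and the stop that closes the upstream frame in capitals.
Gm47652 overlap: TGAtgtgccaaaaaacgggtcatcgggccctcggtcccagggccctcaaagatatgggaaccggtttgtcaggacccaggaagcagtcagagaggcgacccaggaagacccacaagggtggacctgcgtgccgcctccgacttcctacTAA
Between these stops the same 145 bases are open in both frames. The Gm42653 and Gm47652 windows also show the structure and not a level. The Gm42653 pair had 0.70 and 0.66 counts upstream in the controls and 0 elsewhere. The Gm47652 pair had 0 counts upstream. Its downstream locus had 7.47 and 15.1 counts in the controls, against 15.07 and 10.44 in the knockdown, where the groups overlap.

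As all member lengths are multiples of 3, the frame offset follows from the gap and adds nothing to it. The median gap was 3 bp, and 988 pairs (22.6%) had a gap of exactly 3 bp, which always keeps one frame. Members overlapped in 1814 pairs, by up to 524 bp, and 0 of those pairs kept one frame. Stretches that run from stop to stop cannot overlap in one frame, so this 0 follows wherever members are such stretches. Counting all pairs, 1537 had both members in one frame, 1074 had the downstream frame shifted by 1 base and 1762 by 2 bases. Overlaps of 145 bp (147 pairs) and 157 bp (110 pairs) were the most frequent after the 3 bp gap. The plot of pair spacing shows the peak at 3 bp and the overlapping pairs to its left. Near the limit of the rule there was little signal: the 53 pairs with gaps of 901 to 1000 bp had 0 members tested, as did the 31 pairs 1001 to 1100 bp apart.

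**Figure D1:**
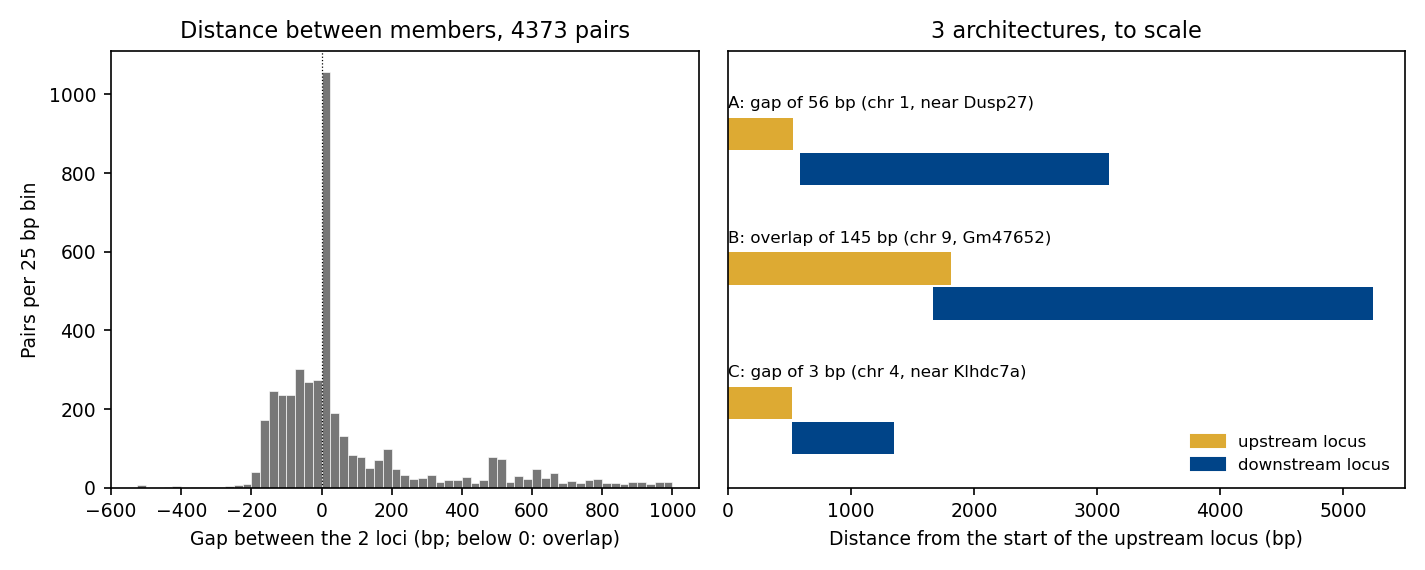
Left, number of pairs per 25 bp bin of the gap between members, with overlaps below 0; 988 of 4373 pairs have a gap of 3 bp. Right, 3 pairs drawn to scale in bp from the start of the upstream locus, with gaps of 56 bp (A) and 3 bp (C) and an overlap of 145 bp (B).

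Peg10, a gene of mammals that descends from a retrotransposon and is known for a frameshift between its overlapping reading frames, was among the pairs. Its 1227 bp and 2121 bp loci overlap by 232 bp with a frame offset of 2. Both members and the Peg10 gene row were at 0 counts in all 4 libraries.

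All members had lengths that are multiples of 3, from 243 to 5553 bp with a median of 498 bp. In GENCODE M21, 7153 lay between genes, 1014 in an intron on the opposite strand, 484 in an intron on the same strand, 78 touched an exon on the same strand and 17 an exon on the opposite strand. The Y chromosome held 1682 members, the most of any chromosome, of which 2 were tested.

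Few members were expressed at a measurable level. Counts of 0 in all 4 libraries were found for 7576 members (86.6%), and 1170 had a count in some library. The pairs together took 8805 and 10281 counts in the controls, against 9345 and 10146 in the knockdown, or 0.0449% to 0.0527% of a library. The groups overlapped in this total. It was uneven as well: 5 pairs held 47.0% of all pair counts. A read that fits several copies was divided among them by an estimate, so most values are not whole: of the 140 members tested, 5 had whole counts in all 4 libraries and 104 in none. Of the members with counts, 407 of 1170 (34.8%) had the same 4 values as another member. At low counts unrelated loci can share values, and whether these are copies was not tested.

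The targeted gene and the cell type were checked in the same tables. Setdb1 had 1003 and 1159.64 counts in the controls, against 215 and 168 in the knockdown, with no overlap, a log2 fold change of -2.48 ± 0.18 (SE) and an adjusted p of 0.0001359 (edgeR quasi-likelihood test, Benjamini-Hochberg over 13859 rows). The liver genes Alb, Afp, Krt8, Krt18 and Hnf4a were expressed in all libraries, with Alb higher (log2 fold change 0.95, edgeR adjusted p = 0.003856) and Hnf4a lower (log2 fold change -0.59, edgeR adjusted p = 0.03074) in the knockdown, whereas Ttr and Apoa1 had 0 to 7 counts. Leukocyte markers summed to 0.714 to 1.53 CPM (counts scaled to the library total) and endothelial markers to 0.41 to 2.09 CPM. In the list of 4 fibroblast or stellate markers, Dcn had 1440 to 1647 CPM and the other members were at or below 4.04 CPM, with Col1a1 higher in the knockdown (log2 fold change 2.18, edgeR adjusted p = 0.004795). The part of these markers in the results below was not tested.

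A member was tested where it passed edgeR's filter on low counts, which asks for about 10 counts in 2 libraries. This left 140 members (1.60%), 32 upstream and 108 downstream, in 121 pairs. Of these, 59 reached the minimum in both controls and both knockdown libraries, 30 in both knockdown libraries and not both controls, 39 in both controls and not both knockdown libraries, and 12 in 1 library of each group. At an adjusted p under 0.05, 17 members (12.1% of those tested) were higher in the knockdown and 1 (0.714%) was lower. Over all 13859 rows 5.61% were higher and 1.77% lower, and over all tested position-named loci 18.6% and 1.06%. Loci in chains of 3 or more had 23.3% higher and solitary loci 5.79%, differences in share that were not tested. All 17 higher members reached the count minimum in the knockdown libraries and not in both controls, so a difference was needed for them to be tested at all, and their number supports nothing by itself. Leaving out control 2 reduced the higher members to 4, and testing all rows with any count reduced them to 3. Of the 18 called members, 14 lost their call without control 2 (edgeR adjusted p from 0.0503 to 0.1903), 5 without control 1, 2 without knockdown 2, where 1 more was not tested, and 0 without knockdown 1. The 4 that kept it without control 2 were the downstream loci near Dusp27, Gpa33 and Klhdc7a and in 4930412F09Rik. The median log2 fold change of the tested members was -0.336, against -0.00439 over all rows. It was below 0 in the other classes of position-named loci too, at -0.429 for solitary loci and -0.217 for loci in chains of 3 or more.

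The 17 higher members lay in 12 pairs, of which 5 had both members higher, and formed 15 distinct sets of values. Summed over these 12 pairs, the controls had 49 and 49 counts and the knockdown libraries 1014 and 1005. The other 4361 pairs had 8756 and 10232 counts in the controls, against 8332 and 9141 in the knockdown, where the groups overlap. The 12 pairs were chosen by members that passed the filter only through the knockdown libraries, so their low control counts follow in part from that choice. All pairs together had 8805 and 10281 counts in the controls, against 9345 and 10146 in the knockdown. The share of the 12 pairs was thus larger in the knockdown, though the other pairs held most counts in every library.

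The pair on chromosome 1 14.0 kb from Dusp27 (chr1:166081075-166084166, plus strand, between genes) has a 528 bp locus, a gap of 56 bp and a 2508 bp locus. Its downstream locus had 7.5 and 13.32 counts in the controls, against 177.07 and 166.01 in the knockdown. Both knockdown values lie far above both controls (log2 fold change 4.04 ± 0.32, SE; edgeR adjusted p = 0.000178). The upstream locus had 0 and 4.07 against 13.97 and 23.01 counts, again without overlap, with a log2 fold change of 3.15 ± 0.81 (edgeR adjusted p = 0.04803). That call is close to the threshold and was lost in 7 of 11 alternatives. The adjusted p-values there ranged from 0.05002 (edgeR with RLE size factors) to 0.2959 (edgeR without the low-count filter). With the DESeq2 test the adjusted p was 0.09009.

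A second pair on chromosome 1 (chr1:166175552-166178877, plus strand) lies 9.0 kb from Gpa33, which codes for a cell surface glycoprotein of intestinal epithelium. Its members of 1440 and 2040 bp overlap by 154 bp. The downstream locus had 1.66 and 1.31 counts in the controls, against 84.49 and 75.29 in the knockdown, and the upstream locus 0 and 2 against 28.39 and 24.34. Neither member's groups overlap. The log2 fold changes were 5.63 ± 0.48 (edgeR adjusted p = 0.0002501) downstream and 4.56 ± 0.74 (edgeR adjusted p = 0.005832) upstream. The genes between these 2 pairs rose as well: Gpa33 had 32 and 37 counts in the controls, against 190 and 179 in the knockdown (log2 fold change 2.44, edgeR adjusted p = 0.0005325). Dusp27, an atypical dual-specificity phosphatase of muscle, had 8 and 3 against 71 and 83 counts (log2 fold change 3.8, edgeR adjusted p = 0.001099).

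The pair near Klhdc7a on chromosome 4 (chr4:139954446-139955792, plus strand) shows the 3 bp gap, with members of 519 and 825 bp in one frame. The downstream locus had 1.91 and 2.48 counts in the controls, against 98.38 and 94.09 in the knockdown. The upstream locus had 2.09 and 0 against 39.99 and 30.22. Every knockdown value is above every control value. The log2 fold changes were 5.52 ± 0.43 (edgeR adjusted p = 0.000178) and 4.98 ± 0.72 (edgeR adjusted p = 0.003225). Klhdc7a, 4.4 kb away on the other strand, had 41 and 38 counts in the controls, against 182 and 197 in the knockdown (log2 fold change 2.28, edgeR adjusted p = 0.000721).

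Chromosome 8 holds a tandem of 2 pairs, chr8:47467252-47470271 and chr8:47473927-47476946 on the plus strand, each with a 456 bp locus, a gap of 56 bp and a 2508 bp locus. They lie 19.8 and 13.2 kb from Trappc11, a subunit of the TRAPP vesicle tethering complex. Both pairs were given the same values: 0 and 0.70 counts in the controls against 28.71 and 31.81 upstream, and 2.84 and 0 against 97.37 and 63.37 downstream. The groups do not overlap, and the log2 fold changes were 5.63 ± 0.74 (edgeR adjusted p = 0.002093) and 5.64 ± 0.65 (edgeR adjusted p = 0.001046). Identical values in all libraries mean that the tables cannot tell the 2 pairs apart, and they count as one measurement. Trappc11 itself had 830 and 820 against 898 and 982 counts (log2 fold change 0.21, edgeR adjusted p = 0.4342).

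In 2 pairs the controls were at 0 throughout. The pair at chr1:177655726-177658817 on the minus strand (528 bp, gap of 152 bp, 2412 bp) had 61.58 and 45.84 counts in the knockdown libraries, at least 35.6-fold above the 3 counts over both controls that a count of 0 allows. Its downstream locus, with 55.90 and 33.02 counts, passed the test (edgeR adjusted p = 0.001671). Its upstream locus had 5.68 and 12.82 counts and was not tested. The pair at chr4:131222818-131227595 on the plus strand overlaps by 19 bp (2214 and 2583 bp) and had 21.06 and 59.75 counts, at least 27.0-fold above the same limit. Its upstream locus had 12.05 and 46.17 counts, a wide spread, and passed the test (edgeR adjusted p = 0.01442). Its downstream locus had 9.01 and 13.58 counts and was not tested.

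In 2 more named pairs 1 member was called. On chromosome 6 (chr6:30930362-30933453, plus strand, in an intron of 4930412F09Rik on the same strand), the 2508 bp downstream locus had 14.49 and 0 counts in the controls, against 111.60 and 155.30 in the knockdown. The controls disagree, but both lie below both knockdown values (log2 fold change 4.25 ± 0.67, edgeR adjusted p = 0.005065). With DESeq2 in place of edgeR this call was lost (adjusted p = 0.2981). On chromosome 7, 1.6 kb from Sytl2 counted from its nearer member (chr7:90412343-90413293, minus strand), the 510 bp downstream locus had 3 and 0 against 29.71 and 35.30 counts, without overlap (log2 fold change 4.35 ± 0.71, edgeR adjusted p = 0.005981). Its 438 bp upstream partner, 3 bp away in the same frame, had 1 count in 1 knockdown library and 0 in the other libraries. Of the 2 members, only the downstream one thus had counts to compare.

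The other 3 higher members were named after their values were seen, because the naming rule left their pairs out. All 3 are downstream loci. The 2508 bp locus of chr10:117485158-117488255 had 8.31 and 12.63 counts against 32.40 and 46.37 (log2 fold change 1.90, edgeR adjusted p = 0.02743). That of chr10:72704836-72707927 had 0 and 1.28 against 20.03 and 16.71 (log2 fold change 4.92, edgeR adjusted p = 0.006823). The 2412 bp locus of a pair on chromosome 18, 9.2 kb from Trappc8, had 1.72 and 7.32 against 27.72 and 26.07 (log2 fold change 2.57, edgeR adjusted p = 0.02077). None of the 3 has overlapping groups. Only the second keeps its call with DESeq2, where the others had adjusted p-values of 0.06593 and 0.05274.

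**Figure D2:**
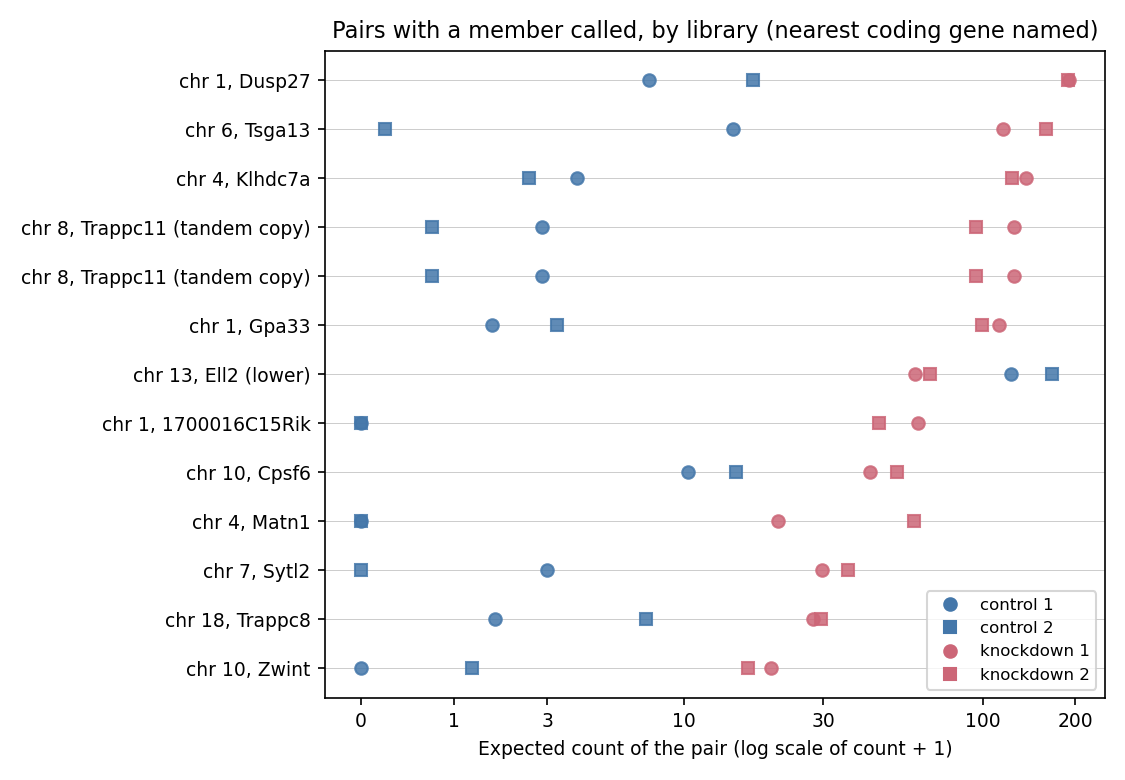
Expected count of each pair with a called member in each of the 4 libraries, on a log scale of count + 1; circles are replicate 1 and squares replicate 2, and each pair is named by chromosome and nearest coding gene. In the 12 pairs with a higher member all knockdown values lie to the right of the controls, and in the pair near Ell2 they lie to the left.

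The only member called lower was the upstream locus of chr13:75677613-75680943 (plus strand, between genes, nearest coding gene Ell2, a transcription elongation factor). It had 98.20 and 154.38 counts in the controls, against 46.12 and 52.61 in the knockdown. The groups do not overlap, with a log2 fold change of -1.32 ± 0.29 (edgeR adjusted p = 0.02516). The downstream locus, which overlaps it by 8 bp, had 25.35 and 13.20 against 13.94 and 14.61 counts, where the groups overlap (log2 fold change -0.37 ± 0.46, edgeR adjusted p = 0.7049). The call of the upstream locus was lost without control 2 (edgeR adjusted p = 0.1784) and with limma on log2(TPM + 1), where TPM is the deposited length-scaled level (adjusted p = 0.06409).

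The pairs were then sorted by spacing, after their values had been seen. Arrangement A takes the combinations of gap and downstream length that at least 2 pairs with a higher member share, a gap of 56 bp before a 2508 bp locus or of 152 bp before a 2412 bp locus, both with a frame offset of 2. Its calls follow from this choice in part and are given as a description. It comprised 20 pairs, of which 14 members in 10 pairs were tested. In all 14 the knockdown values lay above both controls, 11 passed the test and 0 were below 0, with a median log2 fold change of 4.14. That median was also 4.14 with the locus at 0 in the controls set to its lower bound. These 14 include loci with identical values, and most passed the filter through the knockdown libraries. The other members were not tested, so the 14 do not speak for the whole arrangement. Among the untested downstream loci, some had counts in the controls only and others in the knockdown only. The 20 pairs had 1258 and 1297 counts in the controls, against 2571 and 2362 in the knockdown.

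Most counts of arrangement A came from the pair near Hfe2 on chromosome 3 (chr3:96510690-96513781, minus strand), the gene of hemojuvelin, an iron regulator. Unlike the others it was abundant in the controls. Its downstream locus had 980.67 and 1016.91 counts in the controls, against 1441.88 and 1305.89 in the knockdown, and its upstream locus 215.54 and 224.29 against 299.99 and 276.83. Neither member's groups overlap, but the log2 fold changes of 0.48 ± 0.14 (edgeR adjusted p = 0.06691) and 0.41 ± 0.18 (edgeR adjusted p = 0.2319) did not pass the test. With the crossed pairing of replicates, chosen after the data were seen, the downstream locus passed (edgeR adjusted p = 0.01565) at the same fold change. Among the 20 upstream loci of this arrangement, 5 of 528 bp, on chromosomes 2, 4, 5, 6 and 12, had the same 0.40, 0.20, 4.75 and 5.66 counts. The values thus cannot tell these 5 loci apart.

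Arrangement B takes the 2 commonest overlaps, 145 and 157 bp (the Gm47652 window shows the first), which both give a frame offset of 2. It comprised 257 pairs with median lengths of 1836 and 3060 bp, and 472 of its 514 members had some count. Its pairs had 3171 and 3959 counts in the controls, against 2347 and 2681 in the knockdown, without overlap. Of 90 members tested, 0 were called with edgeR, 14 were lower and 1 higher at an unadjusted p under 0.05, and DESeq2 called 1 lower and 0 higher. Over all rows 3033 of 13859 had an unadjusted p under 0.05, a larger share than these 15 of 90. With the replicate number as a block edgeR called 2 lower, and with the crossed pairing 9. Of the 90, 68 lay below 0, and the median log2 fold change over them all was -0.428. In 43 members both knockdown values lay below both controls, and in 4 above. The background for such separation was 27.5% of all tested rows lower and 25.3% higher. Of all 140 tested members, 39 reached the count minimum in both controls and not both knockdown libraries, and 30 the reverse. A member let in through the controls alone needed a difference to be tested, so the split may follow in part from the filter. How many of the 39 belong to B was not counted. Loci among which reads are divided by an estimate are not independent measurements. Solitary loci had like values, with 90 of 190 separated lower, 75.3% below 0 and a median of -0.429, and whether this arrangement differs from them was not tested.

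The pair with most counts of arrangement B was chr2:40236059-40239399 (plus strand), 357.4 kb from Lrp1b, which held 14.2% of the arrangement's counts. It had 461.55 and 595.53 counts in the controls, against 335.19 and 331.91 in the knockdown. The groups do not overlap, and its members had log2 fold changes of -0.74 upstream and -0.42 downstream, neither called. The next, 5.0 kb from Ercc4 on chromosome 16 (chr16:13101121-13106375, minus strand), had 67.77 and 29.38 against 63.32 and 73.72 counts, which overlap. Of the 170 pairs of this arrangement with at least 20 counts over the 4 libraries, 73 had both knockdown values below both controls, 9 above, and 88 overlapped.

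The 988 pairs with a 3 bp gap (C) had 795 and 927 counts in the controls, against 902 and 1197 in the knockdown. Of their 11 tested members 3 were higher, those near Klhdc7a and Sytl2, and 0 were lower (1 at an unadjusted p under 0.05, and 0 by DESeq2). Of the 25 tested members in the other 3108 pairs (D), 3 were higher, 1 was lower and 21 were neither. Over all rows 5.61% were higher and 1.77% lower. The higher members of C and D passed the filter through the knockdown libraries, so their number supports nothing by itself. The plot of fold changes by arrangement shows the tested members of A above 0 and those of B mostly below. For A this follows in part from how it was chosen.

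**Figure D3:**
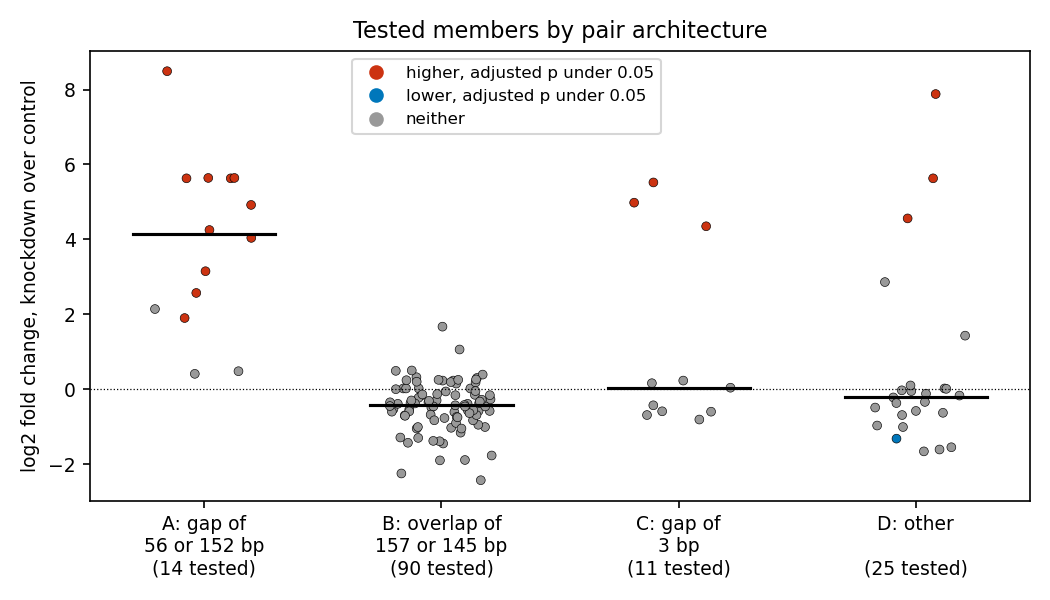
The log2 fold change (knockdown over control) of each of the 140 tested members by arrangement; black bars are medians, red points are higher and the blue point lower at an edgeR adjusted p under 0.05. The 14 members of A lie above 0 with a median of 4.14, and 68 of the 90 members of B lie below 0. A was defined from pairs with a higher member, so its place above 0 follows in part from that choice.

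Where both members of a pair were tested, their fold changes mostly had the same sign. Both members were tested in 19 pairs, or 18 with the identical pairs on chromosome 8 counted once. In 15 of these 18 the fold changes had the same sign, 7 above 0 and 8 below. Where both members were called higher, both had passed the filter through the knockdown libraries, so their like sign follows from the filter. The median absolute difference between the members' log2 fold changes was 0.26 and the largest was 1.08, in the pair near Gpa33. The 3 pairs of opposite sign had no called member. On the TPM scale, which divides by length, the upstream locus had the higher level in 12 of the 18 pairs. In the Hfe2 pair the upstream locus had 51.71 and 52.24 TPM in the controls and the downstream locus 28.08 and 29.57. Overlapping members share reads, so their values are not independent.

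**Figure D4:**
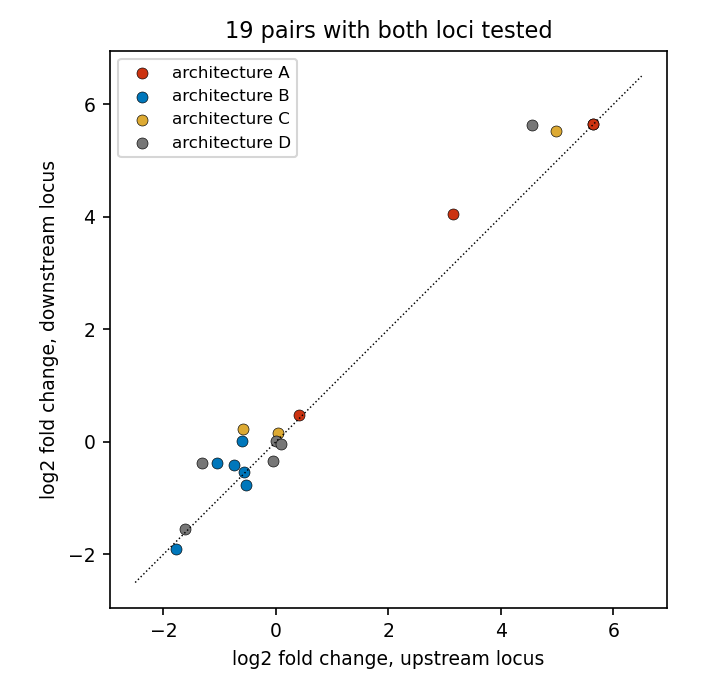
The log2 fold change of the downstream locus against that of the upstream locus in the 19 pairs with both tested, coloured by arrangement; the dotted line marks equal values. The points lie near the line, 16 of 19 with the same sign, and the 2 pairs on chromosome 8 coincide.

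Since reads are divided between members, each pair was also tested as a sum. Of the 160 pair sums tested, 19 were higher and 3 lower, against 5.65% and 1.79% of all rows in that table. Most of the 19 had a control below the filter's minimum of about 10 counts and were tested through the knockdown libraries. Pairs with identical values, on chromosomes 8 and 14, are also among them, so their number supports nothing by itself. Without control 1 the higher sums numbered 8, and without control 2 they numbered 7. The sums added 7 pairs to the 12 described above. One was a pair of arrangement A in an intron of Camk1d on the opposite strand (chr2:5555862-5558953), with 0.40 and 0.83 counts in the controls, against 53.82 and 14.51 in the knockdown (edgeR adjusted p = 0.00952). The 2 knockdown values differ widely but lie above both controls.

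Another of the added sums was chr1:35271890-35273059 (plus strand, gap of 3 bp), at 0 in both controls and at 14.34 and 16.22 counts in the knockdown libraries, at least 10.3-fold higher (edgeR adjusted p = 0.007431). Near the start of chromosome 14, 3 pairs with members of 780 and 405 bp rose together. The first had 1 and 0 counts against 30.77 and 9.75, and each of the other 2 had 0.67 and 0 against 23.97 and 10.62 (edgeR adjusted p = 0.01736 and 0.01396). Those last 2 share all values and count as one measurement. The remaining 2 sums lay on chromosome 12, at chr12:20867939-20868744 (0 and 0 against 12.45 and 12.09, edgeR adjusted p = 0.0105) and chr12:74307425-74310014 (0.77 and 3 against 18.04 and 17.36, edgeR adjusted p = 0.01747).

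The lower sums were the Ell2 pair and 2 more. A pair in Gm47015 (chr10:79415321-79416681, minus strand) had 51 and 99.99 counts in the controls, against 29 and 20 in the knockdown (log2 fold change -1.59 ± 0.39, edgeR adjusted p = 0.04062). As 1 member overlaps an exon of Gm47015 on its strand, its reads cannot be told apart from that gene's. A pair of arrangement B in an intron of Nudcd3 (chr11:6142869-6148096, minus strand) had 68.95 and 94.55 against 11.26 and 32.97 counts (log2 fold change -1.86 ± 0.45, edgeR adjusted p = 0.03514). Neither has overlapping groups, and in both the members alone did not pass the test. With limma on log2(TPM + 0.1), 0 sums were lower.

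The pairs with the highest levels, ranked by summed TPM, gave no call. By counts the Hfe2 pair held the most, 14.9% of all pair counts. The most abundant by summed TPM lay 1.7 kb from Vars, the gene of valyl-tRNA synthetase, on chromosome 17 (chr17:34997992-34999251, minus strand, 399 and 768 bp). Its upstream locus had 300 and 363 counts in the controls, against 275 and 381 in the knockdown, and its downstream locus 940 and 1157 against 1042 and 1058, all whole numbers. The groups overlap, with log2 fold changes of 0.01 ± 0.21 and 0.02 ± 0.15. Next was chr13:75644410-75645216 (minus strand), whose upstream locus lies opposite an exon of Gm4149 and had 630.15 and 713.62 against 560.31 and 576.21 counts (log2 fold change -0.22 ± 0.15, edgeR adjusted p = 0.4412). Its 252 bp downstream partner was at 0 in all libraries.

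The pair at chr10:38059737-38061403 (plus strand) had 602 and 460 counts in the controls, against 420 and 543 in the knockdown. The groups overlap (log2 fold change of the sum -0.12 ± 0.20, edgeR adjusted p = 0.7808). The pair 16.9 kb from Csnk2a1, which codes for the catalytic subunit of casein kinase 2, lies at chr2:152207989-152209914 with a 3 bp gap. It had 523.88 and 617.86 against 488.83 and 720.86 counts, which overlap (log2 fold change of the sum 0.11 ± 0.20, edgeR adjusted p = 0.8149).

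Genes near the pairs were counted within 50 kb. Around the 12 pairs with a higher member 10 genes were tested, of which 3 (30%) were higher, namely Gpa33, Dusp27 and Klhdc7a, and 0 lower. The other 7 were neither. Around the 108 other pairs with a tested member 71 genes were tested, of which 5 (7.04%) were higher and 3 lower. Around the Ell2 pair 2 genes were tested and 0 were called. Over all genes tested 4.56% were higher and 1.83% lower. As the 3 genes lie at 2 places, these shares are descriptions of 2 places and were not tested.

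A list of 37 genes that act in the silencing of retroelements was read from the same fit, and 36 were tested. Of these 3 rose, 2 fell (the targeted Setdb1 among them) and 31 passed in neither direction, with a median log2 fold change of -0.015. Over all rows 5.61% were higher and 1.77% lower, and whether the list differs from that was not tested. Atf7ip, the partner that stabilises Setdb1, had 1846 and 1796 counts in the controls, against 4482 and 3238 in the knockdown (log2 fold change 1.10, edgeR adjusted p = 0.004455). Resf1, which binds Setdb1 and acts in retroelement silencing, had 1111 and 1278 against 4735 and 3400 counts (log2 fold change 1.79, edgeR adjusted p = 0.0005071). Zfp809, a zinc finger protein that brings this machinery to proviral DNA, rose too (log2 fold change 0.92, edgeR adjusted p = 0.04512). Besides Setdb1, Suv39h2, another H3K9 methyltransferase, fell (log2 fold change -0.82, edgeR adjusted p = 0.03204). Trim28 had 8650 and 7695 counts against 7535 and 7482 and was not called, and Atf7ip2 was at 0 in all libraries.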

How the data were processed

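Total RNA was extracted with an RNeasy kit and libraries were made with a directional NEBNext kit, per the labels' protocols. Per the submitters' processing notes the tools were FastQC, STAR, RSEM and DESeq2, with mm10 and GRCm38 as builds and no versions. The sources used here give neither the annotation nor the strand setting. The deposited expected counts, per the file headers, are RSEM's estimates of reads per row and need not be whole. The TPM values were deposited by the authors and are divided by length. FPKM values were deposited but not used.

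Expected counts were rounded, and genes and loci were fitted in one table with edgeR 4.0.16 (R 4.3.3; TMM, filterByExpr, quasi-likelihood F-test, group only, Benjamini-Hochberg over 13859 rows, threshold 0.05). Residual degrees of freedom were 2 and prior ones 7.28. SEs come from the F statistic. Pair sums replaced their members in a table of 13879 rows. On counts simulated for 13859 rows the test found 64.3% of the changes of 2-fold and 91.7% of those of 4-fold, and 3.83% of its calls were false. The changed rows were drawn from the whole table, each row was given the spread usual at its level, and the filter was left out. These rates therefore need not hold for members of pairs, many of which lie near the count minimum. Replicates of a group differed by more than counting noise, so no library was counted as a copy. Lower bounds use 3 counts over both controls, and cover counting error only.

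Loci were placed on GENCODE M21 (GRCm38). A count was called whole within 0.005 of an integer. Alternatives were RLE size factors, other filters, DESeq2 1.42.0, limma 3.58.1 on log2(TPM + 1) and log2(TPM + 0.1), each library left out, a replicate block and other chaining gaps. Same-numbered libraries did not deviate together (correlation of deviations from the group means -0.19 over all rows tested). Named was Setdb1. Among higher members of at least 0.5 mean CPM, the 8 pairs with the smallest p and the 8 with the largest fold change followed. To these came the 5 pairs with the smallest p among lower members and the 5 with the largest summed TPM. Also sought were pairs with both members at an unadjusted edgeR p under 0.05 in opposite directions. A last rule took pairs with 1 member called higher and the other tested and below 0. Each of these last rules gave 0 pairs. The members and lists were chosen with earlier results of these data known. Some results are not reported here.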

Additional observations from a re-analysis of the deposited data

How the results depend on the processing

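Low counts limit these results: 86.6% of the members had 0 counts, and the members called higher rest on few control counts. Of the 18 called members, none reversed under the alternatives listed here. Counts that moved by over 1.5 times were as follows; the cause was not tested. Without the low-count filter, which tests 1116 members instead of 140, 3 members were higher, 0 lower and 0 pairs had both higher, with 5 pair sums higher and 0 lower (edgeR; 51 members higher and 30 lower at an unadjusted p under 0.05). A filter of 1 CPM gave 11 higher sums. DESeq2 gave 2 lower members. With limma on log2(TPM + 1) 1 sum was lower, and on log2(TPM + 0.1) 0 members (16 at an unadjusted p under 0.05) and 0 sums were lower. Leaving out 1 library, where the lone one of its group is assumed to vary like the others, gave 4 to 18 higher members and 0 to 3 lower, 0 to 5 pairs with both higher, and 7 to 15 higher and 0 to 4 lower sums.

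The replicate block gave 4 lower members and changed no other count by over 1.5 times, and the crossed pairing, added after the data were seen, gave 13 lower members and 7 lower sums. Setdb1 stayed between -2.66 and -2.18. Arrangement medians, computed after the data were seen, ranged from 1.40 to 4.54 for A and from -0.61 to -0.13 for B, both extremes nearest 0 from log2(TPM + 1).

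Signs changed for uncalled members near 0. The upstream Vars locus gave 0.00 with RLE size factors, DESeq2, both limma fits and the crossed pairing, -0.01 with the replicate block and -0.24 to 0.23 with 1 library left out, and its partner -0.02 in both limma fits and -0.10 to 0.16 with 1 library left out. The Csnk2a1 pair's upstream locus gave -0.03 in both limma fits and -0.23 to 0.27 with 1 library left out, and its partner -0.18 to 0.44. With 1 library left out, the upstream locus at chr10:38059737 ranged from -0.30 to 0.17 and the downstream Ell2 locus from -0.78 to 0.20.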
